A study of Mus musculus with 36 samples.

Results

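The effect of losing Bod1L was followed in mouse embryonic stem cells (ESC) kept in the naive state by 2i medium. The comparison took 2 Bod1L knockout (KO) libraries, whose labels name tamoxifen, against 2 wild-type (WT) libraries of the same line, for which no tamoxifen is named, and these are 4 of the 36 RNA-seq libraries of the series. All 4 cultures were in medium with LIF and the inhibitors PD0325901 and CT99021, which block MEK and GSK3. The other libraries hold Bod1L, Setd1a and Mll2 lines in 2i, in serum with LIF (FCS) and as epiblast stem cells (EpiSC), in 18 groups of 2. Deletion and tamoxifen came together, so their effects cannot be told apart. The Bod1L cultures come from 1 conditional line, and the deleted part of Bod1l is not given in the sources used here. The p-values measure the spread between cultures labelled as biological replicates. Unless another fit is named, this spread was estimated over all 18 groups and not from the 4 libraries alone.

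Bod1l codes for a large chromatin protein that protects stalled replication forks and works with SETD1A, a histone H3 lysine 4 methyltransferase of the COMPASS family. ESC in 2i are held in the naive state by the block of MEK and GSK3, here with LIF added. They express naive factors such as Klf4, Esrrb and Tfcp2l1. A small share of cells in such cultures passes through a state that resembles the embryo after its first cleavage, marked by the Zscan4 cluster.

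The KO libraries held 35232829 and 33533025 gene counts and the WT libraries 40591108 and 33275805. Levels are given as CPM, counts per 1000000 counts after scaling of library size. Effects are log2 fold changes of KO over WT with their standard error (SE), and a gene is called when its edgeR quasi-likelihood p, Benjamini-Hochberg adjusted over 23501 genes, is below 0.05. Libraries that carry the same replicate number resembled each other more than libraries of the same genotype did. The SD of log2 differences over 11633 genes of at least 5 CPM was 0.398 between KO and WT replicates 1 and 0.38 between KO and WT replicates 2, but 0.552 between both KO libraries and 0.583 between both WT libraries. For this reason a second fit with the replicate pair as a term (the block) was made, and it is given beside the first where it changes a call.

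The cells carried the markers of the naive state. In KO cells the summed level of 23 naive genes was 6170 and 6810 CPM, against 6220 and 6590 CPM in WT cells, while 19 formative and primed genes together reached 358 and 417 CPM in KO and 366 and 470 CPM in WT cells. Esrrb had 642 and 778 CPM in KO cells, against 637 and 708 CPM in WT cells. Klf4 had 342 and 285 CPM in KO cells, against 397 and 291 CPM in WT cells, and Pou5f1, the gene of OCT4, had 489 and 504 CPM in KO cells, against 451 and 511 CPM in WT cells. The groups overlapped for all 3 of these genes. The edgeR test called 0 of the 23 naive genes, 0 of them had an unadjusted p below 0.05, and the block and DESeq2 called 0 as well. The 12 markers of feeder fibroblasts summed to 33.1 and 18.3 CPM in KO and 20.7 and 12.5 CPM in WT cells. Col3a1, Lum, Dcn, Postn and S100a4, picked after their values were seen, were at or near 0 in all 4 libraries. Of the 12 markers 9 lay above 0, with a median of 0.50. Both KO libraries were above both WT libraries in 5 and below in 2, against 3529 and 3642 of all 23501 genes. The part of these markers in the results was not tested.

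Bod1l itself (chr5:41787538-41844315, minus strand, GRCm38) had 60.2 and 62.2 CPM in KO cells, against 213 and 199 CPM in WT cells. Both KO libraries lay far below both WT libraries, at 29.7% of the WT mean. The log2 fold change was -1.75 ± 0.243 (SE, n = 2 each, edgeR adjusted p = 7.84e-04; 0.0513 without KO replicate 2). Its paralogue Bod1 had 48.3 and 45.8 CPM in KO cells, against 46.5 and 40.2 CPM in WT cells, which overlap (0.12 ± 0.278). Of 20 tested COMPASS and MLL complex subunits, edgeR called 0, 0 had an unadjusted p below 0.05, and the block and DESeq2 called 0. The 7 tested genes within 1 Mb of Bod1l had a median log2 fold change of -0.09 and 0 calls with or without the block.

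Without the block, more genes were called lower than higher. In KO cells 86 genes were called lower, 0.366% of the 23501 tested, and 2 were called higher, which is 0.00851%. The lowered genes kept a median of 33.4% of their WT level (7.97% to 55.4%), with log2 fold changes between -0.85 and -3.64 and a median of -1.58. All 86 had both KO libraries below both WT libraries, and 81 code for proteins. With the block, 424 genes (1.8%) were lower and 234 (0.996%) higher, and all 88 genes of the first fit were among them. Single libraries mattered in the fit without the block. Of the 86, 7 were called without KO replicate 2 and 8 without WT replicate 1, against 43 without KO replicate 1 and 62 without WT replicate 2. Among the 7 genes called lower in each of these 4 fits were Ccdc191, Mmachc, Gatb, Ercc6l2 and Det1.

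**Figure D1:**
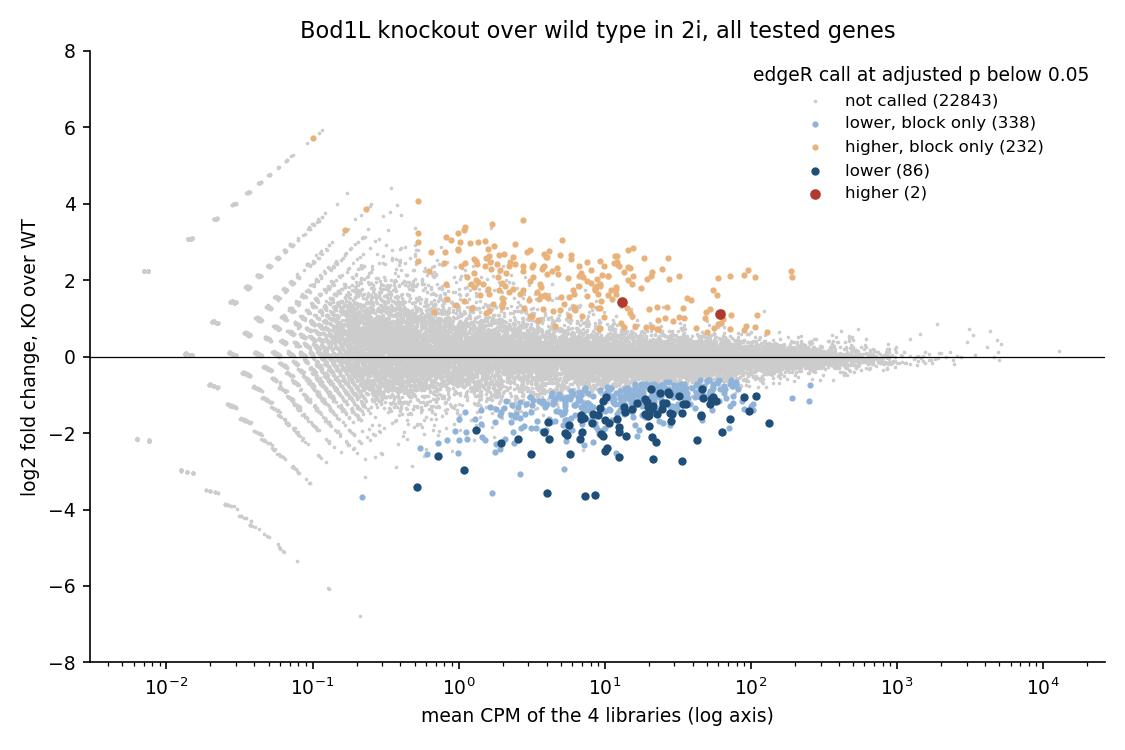
Each point is 1 of 23501 tested genes, with its mean CPM over the 4 libraries on a log axis and its log2 fold change of KO over WT. Dark blue points are the 86 lower and red points the 2 higher genes called without the block, light blue and orange points are those called only with it, and grey points were not called. The genes called without the block lie below 0 except the 2 red ones, while those called only with it lie on both sides.

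These 5 genes have varied roles. In a fit of only the 12 libraries in 2i, Mmachc, Gatb and Ercc6l2 were called, but Ccdc191 and Det1 were not (edgeR adjusted p = 0.081 and 0.0578). In a fit of the 4 libraries alone, 0 of the 86 lowered genes were called without the block and 86 with it. Ccdc191, a coiled-coil gene, was the lowest of all, with 1.55 and 0.594 CPM in KO cells, against 17.8 and 9.17 CPM in WT cells (-3.64 ± 0.442, adjusted p = 2.13e-04). Mmachc, needed to process vitamin B12, had 3.50 and 3.51 CPM in KO cells, against 18.4 and 24.9 CPM in WT cells (-2.62 ± 0.334, adjusted p = 2.55e-04). In both cases the KO libraries lay well below the WT libraries without overlap. Gatb, for a subunit of the mitochondrial glutamyl-tRNA amidotransferase, had 3.36 and 2.76 CPM in KO cells, against 18.5 and 15.8 CPM in WT cells (-2.48 ± 0.315). Ercc6l2, for a helicase-like protein of DNA repair, had 17.5 and 13.4 CPM in KO cells, against 77.6 and 63.8 CPM in WT cells (-2.19 ± 0.232, adjusted p = 6.42e-05). Both were also separated by wide gaps, and Ercc6l2 had the smallest adjusted p of the 4-library comparison. Det1, for a part of the COP1 ubiquitin ligase, was close to 2 CPM in both KO libraries (2.15 and 2.08 CPM), against 9.43 and 8.26 CPM in WT cells (-2.06 ± 0.267). On GRCm38 the gene models of the largest falls among them lie at chr16:43889800-43964314 (plus strand, Ccdc191) and chr4:116702279-116708406 (minus strand, Mmachc). Among these 5 genes the highest adjusted p after leaving out a library was 0.0419, for Gatb without KO replicate 2.

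**Figure D2:**
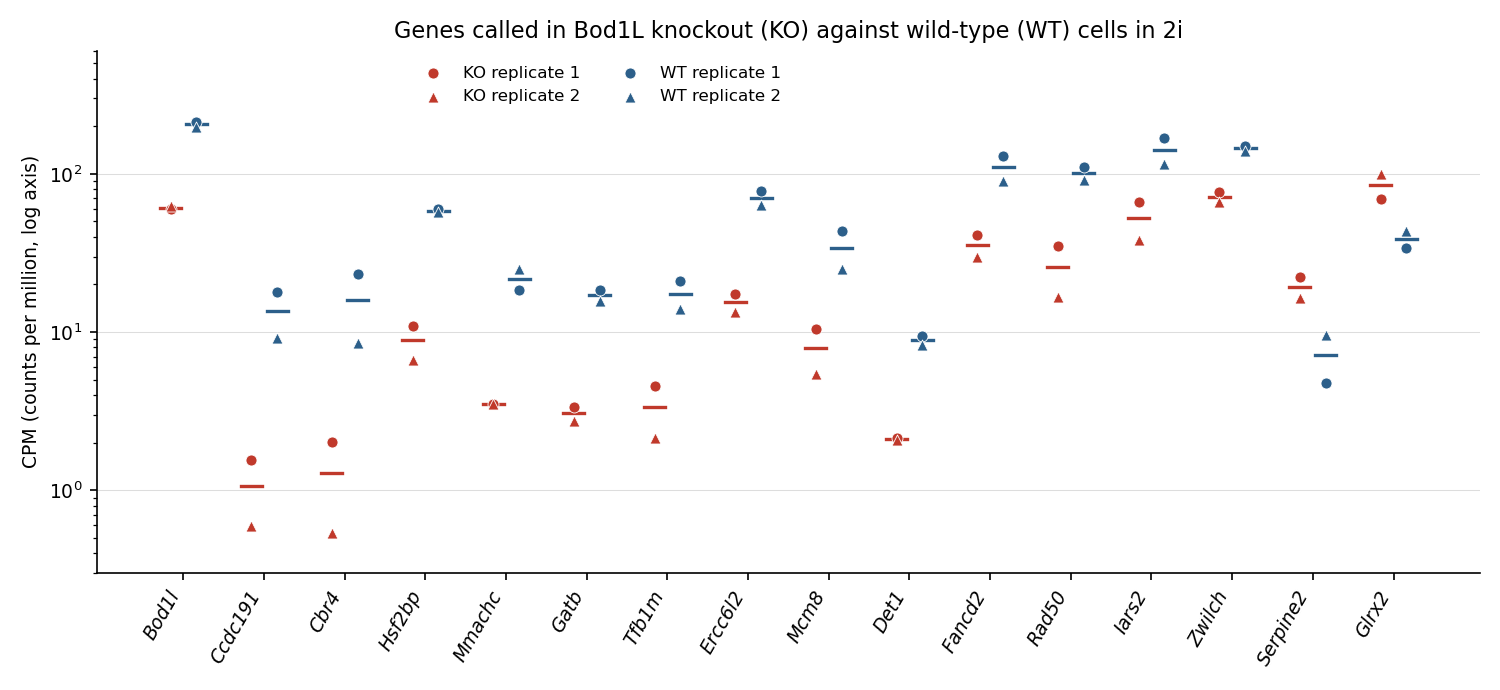
CPM of 16 called genes on a log axis, with KO libraries (red) left of WT libraries (blue), circles for replicate 1, triangles for replicate 2 and bars for the mean. In 14 genes both KO points lie below both WT points, and in Serpine2 and Glrx2 both lie above.

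Several other genes fell as far but lost their calls in some of the fits that left out a library. Cbr4, for a carbonyl reductase of mitochondrial fatty acid synthesis, had 2.03 and 0.535 CPM in KO cells, against 23.2 and 8.57 CPM in WT cells. Its level differed several-fold between replicates of both genotypes, yet the groups did not overlap (-3.62 ± 0.532, adjusted p = 0.00175; 0.11 without KO replicate 2 and 0.0756 without WT replicate 1). Hsf2bp, for a BRCA2-binding protein known from meiotic recombination, had 11.0 and 6.69 CPM in KO cells, against 59.7 and 57.0 CPM in WT cells (-2.72 ± 0.519, adjusted p = 0.017). It lost its call without KO replicate 1, KO replicate 2 or WT replicate 1 (adjusted p = 0.0611, 0.798 and 0.142). Alg8, for a glucosyltransferase that builds the N-glycan precursor, had 2.01 and 1.40 CPM in KO cells, against 13.3 and 6.51 CPM in WT cells (-2.54 ± 0.524, adjusted p = 0.0273), and it was called again only without WT replicate 2, with up to 0.931 otherwise. It was the 1 gene called among 29 of N-glycan assembly (3.45%), and with the block 2 were lower (6.9%, against 1.8% of all genes). Cage1, Mfsd4b4 and Enox2 fell by 2.97, 2.16 and 2.15, and each kept its call only without WT replicate 2. Without KO replicate 2 their adjusted p was 0.902, 0.931 and 0.264.

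Genes of homologous recombination, the pathway that repairs breaks and forks with a sister copy, gave the most calls by number. Of 49 tested, 7 were called lower (14.3%, against 0.366% of all genes) and 0 higher, and with the block 13 were lower (26.5%, against 1.8%). By share, the smaller list of mitochondrial aminoacyl-tRNA supply was higher, at 19.0% without and 28.6% with the block. The share of 12 end joining genes called lower was larger with the block, at 33.3%, and 0 without it. The median of the recombination list was -0.25, against 0.00 over all genes, with 40 of 49 below 0. Mcm8, for a helicase that acts with MCM9, had 10.5 and 5.47 CPM in KO cells, against 43.4 and 24.9 CPM in WT cells (-2.10 ± 0.316, adjusted p = 0.00206). Rad50, for a part of the MRN break sensor, had 35.1 and 16.7 CPM in KO cells, against 111 and 91.8 CPM in WT cells (-1.97 ± 0.427, adjusted p = 0.0392). For both genes replicate 2 was the lower one in either genotype, and the KO libraries stayed under the WT libraries. Rad51b, a recombination mediator gene, had 1.16 and 0.684 CPM in KO cells, against 7.31 and 3.42 CPM in WT cells (-2.54 ± 0.563, adjusted p = 0.0455). Fignl1, for an AAA ATPase of recombination, had 62.2 and 54.6 CPM in KO cells, against 121 and 123 CPM in WT cells (-1.07 ± 0.23, adjusted p = 0.0373). Palb2, for the protein that brings BRCA2 to breaks, had 20.1 and 16.8 CPM in KO cells, against 39.6 and 33.2 CPM in WT cells (-0.98 ± 0.196, adjusted p = 0.0225). None of these overlapped. Babam2, of a BRCA1-containing complex, also fell (-1.21 ± 0.25), as did Hsf2bp. Rad51c, another mediator gene, was called only with the block, with 3.95 and 1.90 CPM in KO cells, against 16.8 and 10.8 CPM in WT cells (adjusted p = 0.108 without and 1.22e-04 with the block). Without KO replicate 2 or WT replicate 1, 0 of the 49 were called, against 3 without KO replicate 1 and 5 without WT replicate 2.

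Other repair pathways gave fewer calls by number. Among 41 excision and mismatch repair genes, whose median was -0.15, 5 were lower with the block (12.2%, against 1.8% of all genes). Without it 3 were lower (7.32%, against 0.366%) and 0 higher. Among them were Ercc6l2, described above, and Parp2, for a poly(ADP-ribose) polymerase that senses breaks. Parp2 had 33.8 and 26.4 CPM in KO cells, against 74.0 and 53.9 CPM in WT cells, without overlap (-1.09 ± 0.216, adjusted p = 0.022). Its call was lost without KO replicate 1, KO replicate 2 or WT replicate 1 (adjusted p = 0.0515, 0.868 and 0.678). Among 23 Fanconi anaemia genes, which act on DNA crosslinks, 1 was lower (4.35%). It was Fancd2, with 41.1 and 29.9 CPM in KO cells, against 130 and 89.6 CPM in WT cells (-1.63 ± 0.261, adjusted p = 0.00415; 0.332 without KO replicate 2 and 0.142 without WT replicate 1). Both KO libraries lay far below both WT libraries. Ercc4, for an endonuclease of crosslink repair, went the other way and was called only with the block, with 56.1 and 84.5 CPM in KO cells, against 32.3 and 50.6 CPM in WT cells (0.76 ± 0.275, adjusted p = 0.629 without and 0.0196 with the block). Of 25 fork protection genes, 1 was called lower, the helicase gene Recql5 (-0.95 ± 0.207, adjusted p = 0.0406), which lost its call without any one library (0.0515 to 1). That was 4.0% of the list, and with the block 5 were lower (20.0%). The medians of the Fanconi and fork protection lists were -0.13 and -0.12.

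In the damage checkpoint list, edgeR called 0 of 25 genes (6 with an unadjusted p below 0.05) and DESeq2 called 2 lower. The block called 4 lower (16.0%, against 1.8% of all genes). Atr, for the kinase that answers stalled forks, had 84.6 and 39.7 CPM in KO cells, against 178 and 115 CPM in WT cells. The groups did not overlap, and its adjusted p was 0.292 without and 0.00306 with the block. Of 12 end joining genes, edgeR called 0 (4 with an unadjusted p below 0.05), DESeq2 called 2 lower and the block called 4 lower (33.3%). Xrcc5, for the Ku80 subunit that holds broken ends, had 61.6 and 38.7 CPM in KO cells, against 138 and 120 CPM in WT cells (adjusted p = 0.125 without and 8.25e-04 with the block). Prkdc, for the DNA-dependent kinase, had 48.1 and 35.3 CPM in KO cells, against 109 and 95.8 CPM in WT cells (adjusted p = 0.198 without and 0.0063 with the block). In both genes the KO libraries lay below the WT libraries.

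Few DNA replication and mitosis genes were called, but most lay slightly below 0. In 18 of 44 replication genes both KO libraries were below both WT libraries, and in 0 they were above. Of 31 genes of G2 and mitosis 25 lay below 0, and these counts were 10 and 1. Over all 23501 genes they were 3642 and 3529. Of 44 replication genes 41 lay below 0, with a median of -0.21, and 1 was called (2.27%, against 0.366% of all genes). This was Orc5, for a subunit of the origin recognition complex, with 30.0 and 17.1 CPM in KO cells, against 74.8 and 61.6 CPM in WT cells, which do not overlap (-1.53 ± 0.257, adjusted p = 0.00662; 0.442 without KO replicate 2 and 0.142 without WT replicate 1). Among 31 genes of G2 and mitosis edgeR called 0 (1 with an unadjusted p below 0.05; 0 by DESeq2; 1 lower with the block), with a median of -0.12. The kinetochore gene Zwilch was outside these lists and had 76.7 and 66.0 CPM in KO cells, against 151 and 140 CPM in WT cells (-1.03 ± 0.2, adjusted p = 0.0203; 0.0524 to 0.798 without any one library). Of 27 p53 targets, 23 lay above 0 with a median of 0.32. The edgeR test called 0 of them (2 with an unadjusted p below 0.05; 0 by DESeq2), and Perp was called higher with the block. In 10 of the 27 both KO libraries were above both WT libraries and in 2 below, against 3529 and 3642 of all 23501 genes. Cdkn1a, a p53 target picked after its values were seen, was among the 4 of the 27 below 0. It had 230 and 231 CPM in KO cells, against 239 and 236 CPM in WT cells, a gap far below its SE (-0.04 ± 0.34).

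The list of mitochondrial aminoacyl-tRNA supply, which charges the tRNAs used inside the organelle, had 4 of 21 genes lower and 0 higher, 6 lower with the block, and a median of -0.50. Besides Gatb they included Ears2, the glutamyl-tRNA synthetase gene, with 6.75 and 3.92 CPM in KO cells, against 24.8 and 20.1 CPM in WT cells (-2.07 ± 0.32, adjusted p = 0.00285). Iars2 was also among them, the isoleucyl-tRNA synthetase gene, with 66.4 and 38.3 CPM in KO cells, against 168 and 115 CPM in WT cells (-1.43 ± 0.273, adjusted p = 0.017). Neither gene overlapped between groups. In 13 of the 21 the KO libraries were below both WT libraries, against 3642 of all 23501 genes. Rars2, the arginyl-tRNA synthetase gene, was called only with the block, with 22.0 and 15.8 CPM in KO cells, against 52.8 and 36.4 CPM in WT cells (-1.24 ± 0.426, adjusted p = 0.522 without and 8.58e-04 with the block). Hars2, the histidyl-tRNA synthetase gene, had 32.3 and 35.6 CPM in KO cells, against 34.2 and 33.2 CPM in WT cells (0.01 ± 0.184). Without KO replicate 2 or WT replicate 1, 2 of the 21 were called. Of 77 mitochondrial ribosome genes 2 were lower with the block (2.6%, against 1.8% of all genes) and 1 without (1.3%, against 0.366%). The latter was Mrpl24, with 31.9 and 30.2 CPM in KO cells, against 73.6 and 74.6 CPM in WT cells (-1.25 ± 0.215, edgeR adjusted p = 0.00676). Its call was lost without KO replicate 1, KO replicate 2 or WT replicate 1 (adjusted p = 0.0515, 0.331 and 0.0896). Of 46 complex I genes edgeR called 0 (1 with an unadjusted p below 0.05; 0 by DESeq2 and with the block).

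Tfb1m, for the methylase of the small mitochondrial rRNA, had 4.58 and 2.14 CPM in KO cells, against 21.1 and 14.0 CPM in WT cells (-2.38 ± 0.405, adjusted p = 0.00676; 0.443 without KO replicate 2 and 0.142 without WT replicate 1). Further mitochondrial genes among the 86 were picked out after their values were seen. Taco1, an activator of COX1 translation, fell by 1.63, Coq2 of coenzyme Q synthesis by 1.52, Cox15 of haem A synthesis by 1.24, Mgme1, a nuclease of mitochondrial DNA, by 1.22 and Supv3l1, a mitochondrial RNA helicase, by 0.85. Mmab, which like Mmachc handles vitamin B12, had 5.93 and 2.79 CPM in KO cells, against 14.7 and 10.1 CPM in WT cells (-1.50 ± 0.3). The 6 picked genes lost their calls without KO replicate 2 and without WT replicate 1. Mgme1 and Supv3l1 lost theirs without KO replicate 1 too. Without WT replicate 2, Mgme1, Supv3l1 and Taco1 were not called.

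The genes of the mitochondrial genome itself lay on the other side. Their summed level was 50700 and 50000 CPM in KO cells, against 38800 and 39200 CPM in WT cells. The share of all counts taken by mitochondrial genes was 5.6% and 5.48% in KO libraries, and 4.31% and 4.22% in WT libraries. Of the 13 protein genes, 11 had both KO libraries above both WT libraries, against 3529 of all 23501 genes. The median of the 13 was 0.44. The edgeR test called 0 of them (3 with an unadjusted p below 0.05), and the block and DESeq2 called 0. The complex I gene mt-Nd2 had 2390 and 2400 CPM in KO cells, against 1270 and 1410 CPM in WT cells (0.84 ± 0.329, adjusted p = 0.799). The exception to the direction was mt-Nd6, the gene on the light strand, with 103 and 117 CPM in KO cells, against 147 and 123 CPM in WT cells.

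Some of the 86 genes are known from primary cilia. They were chosen after their values were seen, with no fixed list, so their number says nothing of cilium genes as a group. Ift172, for a subunit of the intraflagellar transport trains, had 9.35 and 8.47 CPM in KO cells, against 32.9 and 29.6 CPM in WT cells (-1.81 ± 0.372, adjusted p = 0.027). Wdr19, for another transport subunit, had 4.89 and 4.67 CPM in KO cells, against 16.3 and 14.0 CPM in WT cells (-1.66 ± 0.358). C2cd3, for a protein of centriole ends, had 16.2 and 13.8 CPM in KO cells, against 38.5 and 47.3 CPM in WT cells (-1.51 ± 0.31). Both genotypes were tight between replicates for Ift172 and Wdr19. Ift81 fell by 1.35 and Cep290, of the ciliary transition zone, by 1.25. Ift172, Wdr19 and C2cd3 lost their calls whichever library was left out. Ift81 and Cep290 lost theirs without KO replicate 2 and without WT replicate 1.

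The 2 genes called higher were Serpine2 and Glrx2. Serpine2, for a secreted inhibitor of serine proteases, had 22.3 and 16.4 CPM in KO cells, against 4.79 and 9.54 CPM in WT cells (1.43 ± 0.284, adjusted p = 0.0212). Glrx2, for a mitochondrial glutaredoxin, had 69.8 and 99.8 CPM in KO cells, against 34.0 and 43.8 CPM in WT cells (1.12 ± 0.231, adjusted p = 0.027). Both KO libraries were above both WT libraries in either gene. Serpine2 kept its call only without WT replicate 2 and otherwise had an adjusted p of 0.11 to 0.816. Glrx2 kept it only without KO replicate 1, and had 1 without KO replicate 2, 0.805 without WT replicate 1 and 0.0569 without WT replicate 2.

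Genes of the 2-cell-like state were higher in KO cells within each replicate pair. The edgeR test without the block called 0 of the 14 (1 with an unadjusted p below 0.05, 0 by DESeq2). With the block it called 12 higher, 85.7% of the list against 0.996% of all genes. Their summed level was 234 and 729 CPM in KO cells, against 32.5 and 168 CPM in WT cells, so replicate 2 was the higher one in both genotypes. Zscan4c, a telomere-linked gene of this state, had 74.1 and 244 CPM in KO cells, against 10.3 and 56.1 CPM in WT cells. Both KO libraries lay above both WT libraries, and the log2 fold change was 2.83 in pair 1 and 2.12 in pair 2 (adjusted p = 1 without and 0.00382 with the block). Zscan4d had 19.4 and 74.1 CPM in KO cells, against 1.87 and 13.9 CPM in WT cells (0.00191 with the block). Tmem92 had 20.6 and 30.6 CPM in KO cells, against 3.72 and 8.11 CPM in WT cells (9.63e-04 with the block). Sp110, a nuclear body gene, had 7.34 and 13.0 CPM in KO cells, against 1.15 and 2.06 CPM in WT cells (5.21e-04 with the block). Reads of the Zscan4, Usp17l and Tcstv families are hard to place among near-identical copies, so the identity of single members is uncertain. The median of the list was 2.22, and it was 2.88 or 1.46 without KO replicate 1 or 2 and 1.67 or 3.80 without WT replicate 1 or 2. Whether more cells were in this state or each such cell held more RNA cannot be told apart in bulk samples.

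**Figure D3:**
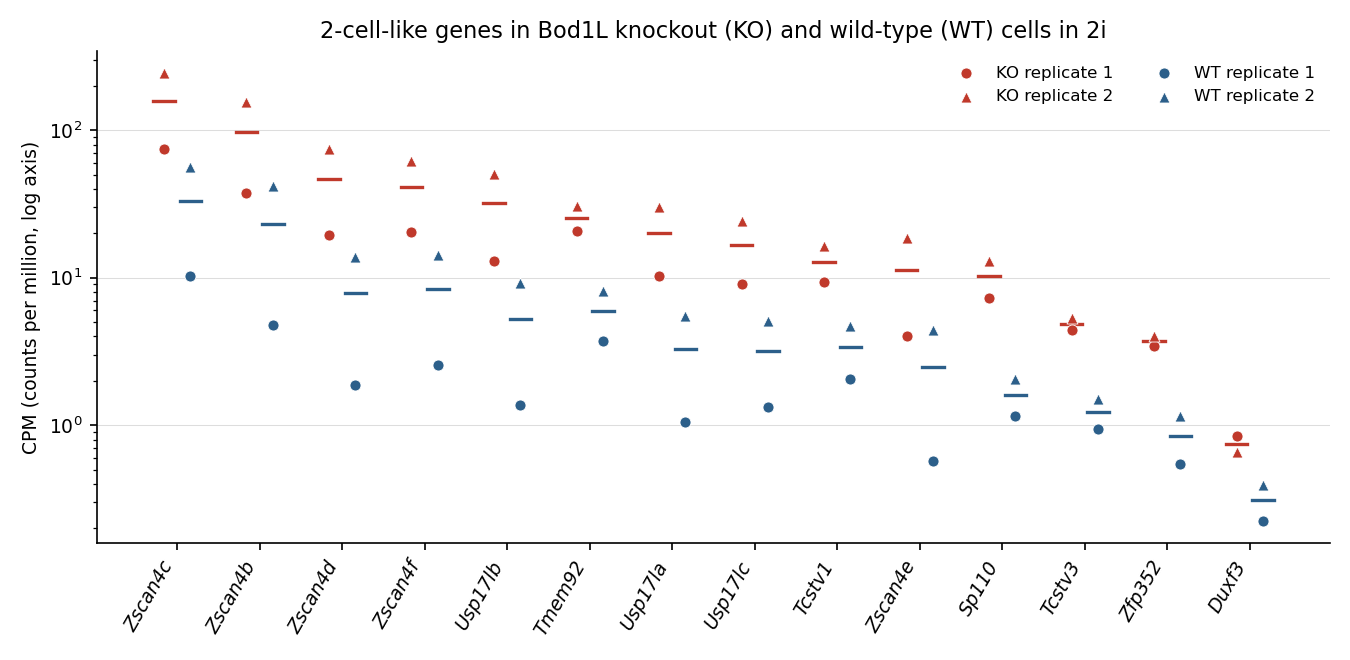
CPM of the 14 tested 2-cell-like genes on a log axis, with KO libraries (red) left of WT libraries (blue), circles for replicate 1, triangles for replicate 2 and bars for the mean. Within each replicate number the KO point lies above the WT point in all 14 genes, and replicate 2 lies above replicate 1 except for Duxf3 in KO cells.

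Other genes were higher only in the fit with the block. Of all 234 genes higher with the block, Serpine2 and Glrx2 included, 204 had both KO libraries above both WT libraries, against 3529 of all 23501 genes. Of the 234, 181 had more in replicate 2 than in replicate 1 in both genotypes, against 4682 of 11633 genes of at least 5 CPM. Hist1h1c, a linker histone gene, had 27.7 and 27.0 CPM in KO cells, against 2.47 and 5.21 CPM in WT cells (2.83 ± 0.753, adjusted p = 0.148 without and 0.00195 with the block). Alppl2, an alkaline phosphatase gene, had 4.27 and 5.89 CPM in KO cells, against 0.399 and 0.454 CPM in WT cells (3.56 ± 1.21, adjusted p = 0.548 without and 0.0038 with the block). Fgf1, for a secreted growth factor, had 7.01 and 7.43 CPM in KO cells, against 0.774 and 1.36 CPM in WT cells (adjusted p = 0.799 without and 6.36e-04 with the block). In all 3 the KO libraries lay close together and far above both WT libraries. Mrgprx2, Spz1, Dnah7c, Olfr374, Ankrd22 and Cpb2 completed the 10 highest together with Sp110, with log2 fold changes of 2.65 to 3.38 and adjusted p with the block of 0.0107 to 0.0441. Over 55 clustered histone genes, whose transcripts mostly lack the poly(A) tail used to select these libraries, the median was 0.95. In 32 of the 55 both KO libraries were above both WT libraries. The edgeR test called 0 (7 with an unadjusted p below 0.05), DESeq2 called 1 higher and the block called 2 higher, Hist1h1c and Hist2h3c2.

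Among genes lower only with the block was Lefty2, for an inhibitor of Nodal signalling. It averaged 22.2 ± 26.3 CPM in KO cells and 70.4 ± 28.8 CPM in WT cells (SD, n = 2 each). KO replicate 1 had 40.8 CPM and KO replicate 2 had 3.63 CPM, so KO replicate 2 stood apart from the other 3 libraries (-1.66 ± 1.03, adjusted p = 1 without and 0.0273 with the block). Lin28a, an RNA-binding protein of pluripotent cells, had 23.1 and 14.0 CPM in KO cells, against 41.5 and 31.2 CPM in WT cells (0.027 with the block). Its groups did not overlap, and it was the only one of 15 general pluripotency genes called in that fit. The germline list had 5 of 24 genes lower with the block (20.8%, against 1.8% of all genes) and 0 without (2 with an unadjusted p below 0.05; 0 by DESeq2). Stag3, a meiotic cohesin gene, had 51.2 and 23.7 CPM in KO cells, against 107 and 58.7 CPM in WT cells, and Cyct, for testis cytochrome c, had 1.75 and 0.684 CPM in KO cells, against 14.2 and 4.48 CPM in WT cells. Both followed the replicate number as well as the genotype. Zkscan7 had the lowest log2 fold change of this kind, with 0.311 and 0.208 CPM in KO cells, against 3.12 and 3.09 CPM in WT cells (-3.56 ± 0.866, adjusted p = 0.086 without and 1.04e-04 with the block). Cntln, Lyplal1 and Sec31b followed at -3.06, -2.53 and -2.42.

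Of 16 retinoic acid response genes 3 were higher with the block (18.8%, against 0.996% of all genes). Without it 0 were called (2 with an unadjusted p below 0.05, 0 by DESeq2). Cyp26a1, for the enzyme that breaks down retinoic acid, had 3.98 and 4.04 CPM in KO cells, against 1.55 and 1.03 CPM in WT cells (1.63 ± 0.501, adjusted p = 0.33 without and 0.0207 with the block). The receptor gene Rarg had 61.4 and 139 CPM in KO cells, against 19.9 and 74.7 CPM in WT cells, which overlap. Rxra had 49.8 and 55.6 CPM in KO cells, against 28.7 and 34.2 CPM in WT cells, which do not. Of 23 genes of the integrated stress response edgeR called 0 (1 with an unadjusted p below 0.05; 0 by DESeq2), and the block called Nupr1, a stress-induced chromatin gene, lower. Nupr1 had 15.5 and 7.85 CPM in KO cells, against 66.4 and 11.2 CPM in WT cells, so WT replicate 1 stood apart, and without it the log2 fold change was 0.05. In the lists of cholesterol synthesis, DNA methylation, Hox, Wnt response, ERK response, primitive endoderm, mesendoderm, neural and trophoblast genes, 0 members were called without the block, with it or by DESeq2, and 0 had an unadjusted p below 0.05. The list of apoptosis regulators had 0 calls in any of these fits and 1 member with an unadjusted p below 0.05.

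**Figure D4:**
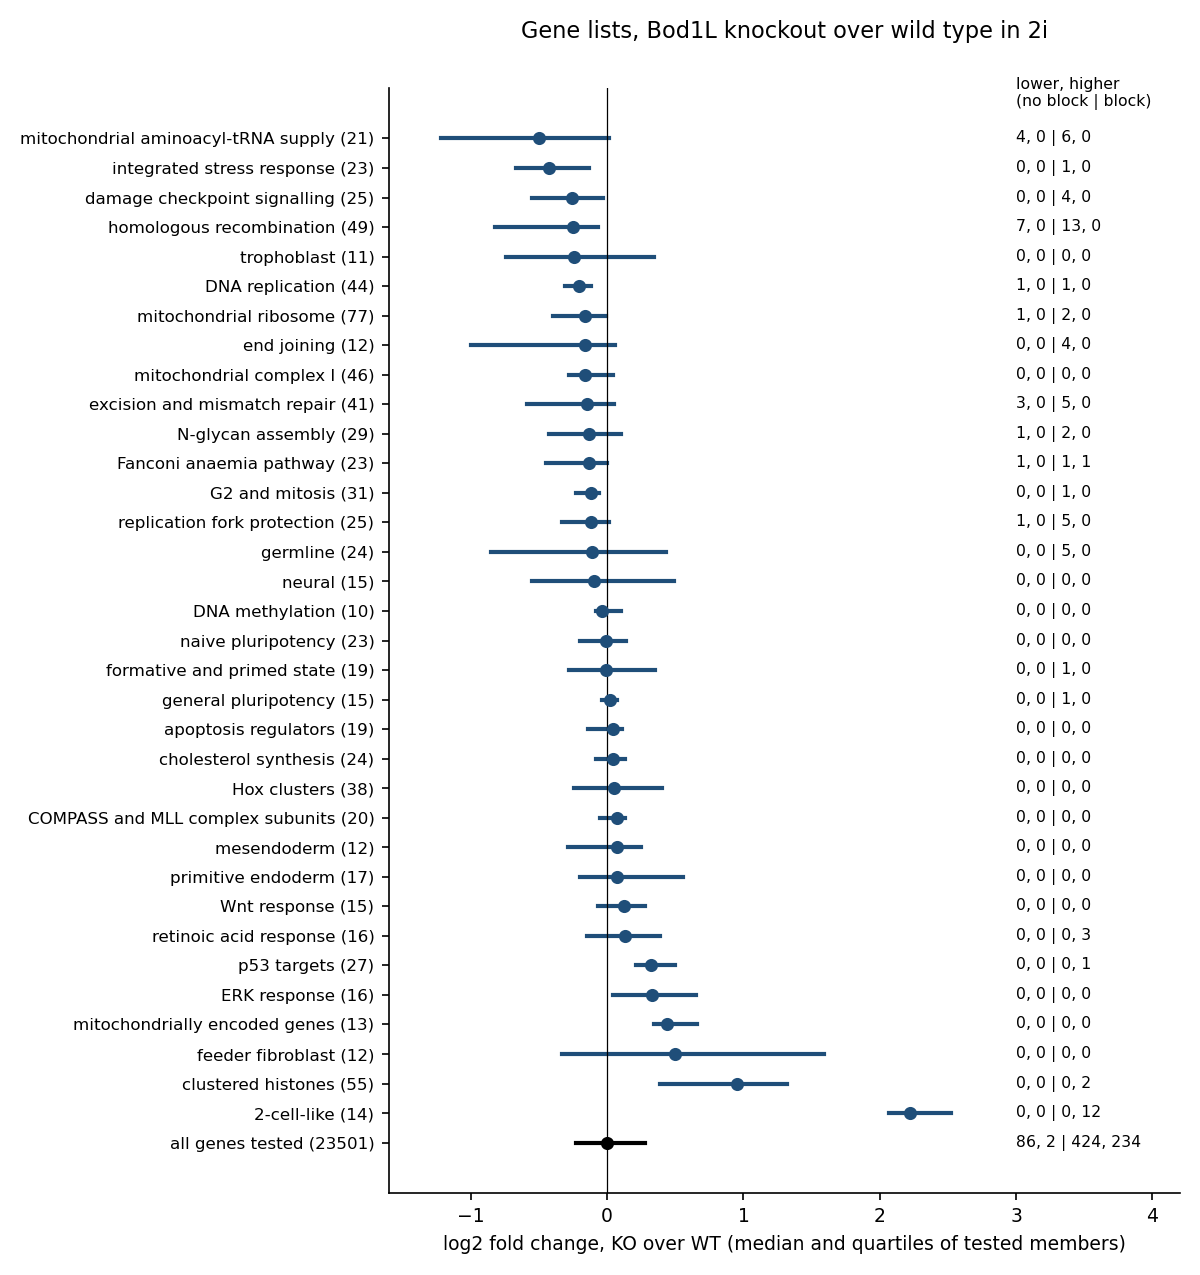
Median (point) and quartiles (line) of the log2 fold change of KO over WT for 34 gene lists and for all genes, with the number of tested members in brackets and the calls at the right as lower and higher without the block, then lower and higher with it. Mitochondrial aminoacyl-tRNA supply has the lowest median at -0.50 and 2-cell-like genes the highest at 2.22, while all genes lie at 0.00.

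Some lowered genes start opposite a neighbour. Of the 81 protein-coding ones, 25 (30.9%) had a tested neighbour that starts within 1000 bp on the opposite strand and runs the other way, against 1622 of 12625 (12.8%) protein-coding genes of at least 1 CPM. In 12 of the 25 pairs the starts were at most 100 bp apart. This gap in shares was not tested. Many of the protein-coding neighbours had close to their WT level. The median of all 25 neighbours was -0.04, against -1.49 for the lowered genes they face. The edgeR test called 0 of the 25 with or without the block (2 with an unadjusted p below 0.05), and DESeq2 called 0. Of the 20 that code for proteins, 13 lay within 0.2 of 0. The sequences between the starts are shown for 4 of the 25 pairs, picked after their values were seen. In each pair one gene was called lower and the other was not. The neighbours in these 4 lay between -0.13 and 0.13, so they do not stand for all 25. They come from the RefSeq promoter windows on GRCm38.p6, and capitals mark the bases from one start site to the other in the gene models of the files.

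The first window is chr4:116708336-116708635, minus strand, with Mmachc on the minus strand and Ccdc163 on the plus strand, starts 103 bp apart. The second is chr2:132815891-132816190, plus strand, with Mcm8 on the plus strand and the tRNA methyltransferase gene Trmt6 on the minus strand, 86 bp apart. The third is chr7:122132897-122133196, minus strand, with Palb2 on the minus strand and the dynactin gene Dctn5 on the plus strand, 56 bp apart. The fourth is chr6:113531589-113531888, minus strand, with Fancd2 on the plus strand and Emc3, for a membrane insertion subunit, on the minus strand, 30 bp apart. This last window is that of Emc3, and the others are those of the lowered genes.
Mmachc and Ccdc163: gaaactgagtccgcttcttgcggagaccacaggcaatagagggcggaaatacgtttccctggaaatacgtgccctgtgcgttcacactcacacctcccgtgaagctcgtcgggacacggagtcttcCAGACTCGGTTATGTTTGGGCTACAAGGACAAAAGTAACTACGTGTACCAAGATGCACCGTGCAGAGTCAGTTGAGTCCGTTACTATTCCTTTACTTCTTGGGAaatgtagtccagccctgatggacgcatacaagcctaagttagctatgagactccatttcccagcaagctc
Mcm8 and Trmt6: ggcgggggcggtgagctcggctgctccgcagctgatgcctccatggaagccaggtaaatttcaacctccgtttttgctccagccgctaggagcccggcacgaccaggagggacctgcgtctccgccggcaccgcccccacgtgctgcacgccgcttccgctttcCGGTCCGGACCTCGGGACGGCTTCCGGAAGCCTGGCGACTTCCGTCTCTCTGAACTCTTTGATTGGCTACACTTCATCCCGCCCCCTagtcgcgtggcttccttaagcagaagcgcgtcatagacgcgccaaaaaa
Palb2 and Dctn5: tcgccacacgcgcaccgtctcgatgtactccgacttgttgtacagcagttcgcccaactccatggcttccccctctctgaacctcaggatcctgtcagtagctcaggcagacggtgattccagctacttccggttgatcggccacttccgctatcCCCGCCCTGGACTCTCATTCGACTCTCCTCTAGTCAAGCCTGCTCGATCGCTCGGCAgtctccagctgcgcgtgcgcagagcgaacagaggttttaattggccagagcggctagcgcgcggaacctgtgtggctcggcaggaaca
Fancd2 and Emc3: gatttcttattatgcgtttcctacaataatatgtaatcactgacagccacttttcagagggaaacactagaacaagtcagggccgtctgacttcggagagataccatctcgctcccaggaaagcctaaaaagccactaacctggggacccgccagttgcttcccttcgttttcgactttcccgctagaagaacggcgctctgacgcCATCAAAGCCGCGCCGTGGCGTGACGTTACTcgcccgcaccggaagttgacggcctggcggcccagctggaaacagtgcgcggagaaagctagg

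Ccdc163 had 11.5 and 14.9 CPM in KO cells, against 11.5 and 12.5 CPM in WT cells (0.13 ± 0.285), opposite Mmachc at 16.2%. Trmt6 had 91.9 and 88.7 CPM in KO cells, against 95.3 and 90.1 CPM in WT cells (-0.04 ± 0.227), opposite Mcm8 at 23.4%. Both neighbours overlapped between groups. Without overlap but with a small gap, Dctn5 had 41.6 and 41.8 CPM in KO cells, against 44.3 and 47.2 CPM in WT cells (-0.13 ± 0.17), opposite Palb2 at 50.7%. Emc3 overlapped, with 54.7 and 40.9 CPM in KO cells, against 55.2 and 41.0 CPM in WT cells (-0.01 ± 0.251), opposite Fancd2 at 32.4%. The neighbours farthest below 0 among the protein-coding ones were Rbks opposite Babam2 (-1.18 ± 0.575), Armt1 opposite Rmnd1 (-0.59 ± 0.279) and Fam3a opposite Ikbkg (-0.57 ± 0.358), all without a call (adjusted p = 1). Farthest above 0 was Cep76 opposite Psmg2 (0.44 ± 0.223, adjusted p = 1).

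**Figure D5:**
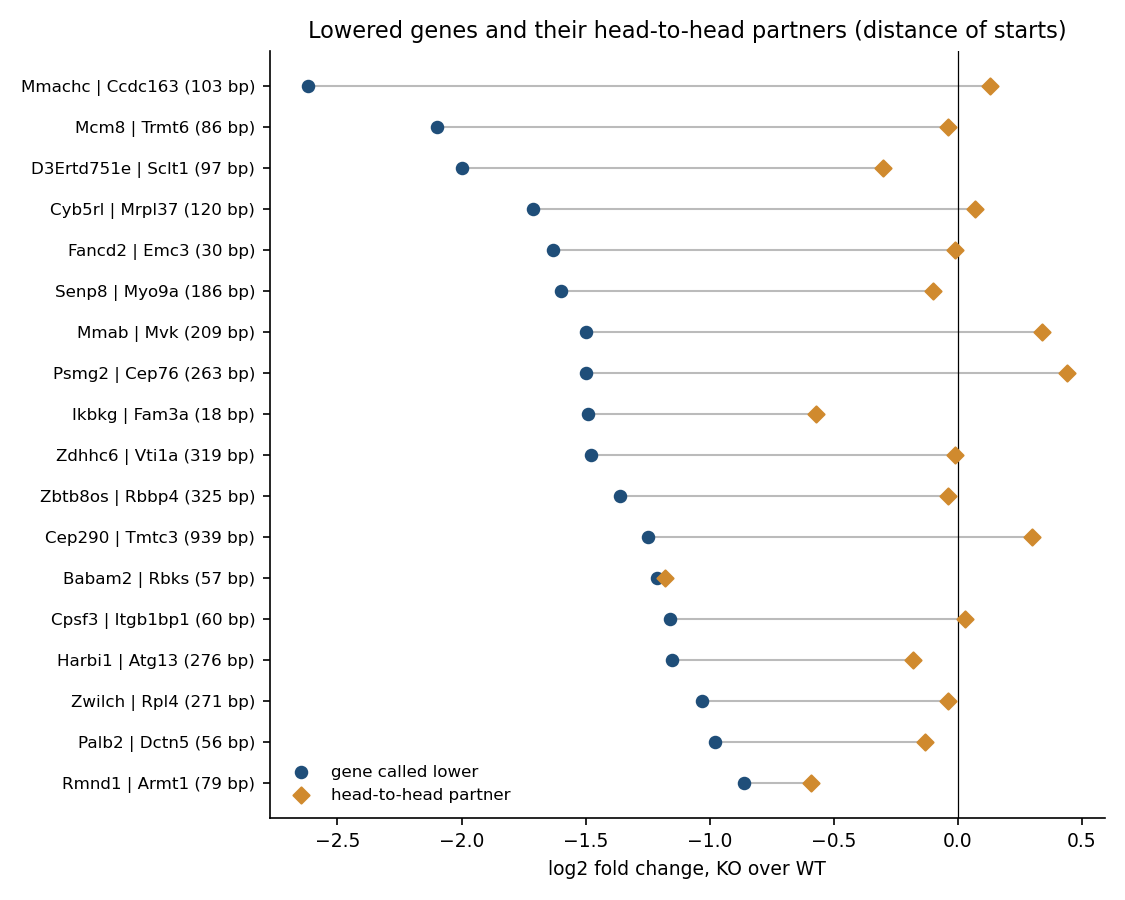
Log2 fold change of KO over WT for 18 lowered genes (circles) and for the protein-coding gene that starts opposite each within 1000 bp (diamonds), with the distance between starts in brackets. Circles lie between -0.86 and -2.62, and most diamonds lie near 0, with Rbks at -1.18 as the lowest.

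Promoter letters were counted in RefSeq windows from 250 bases before to 50 after the start, of 300 bases, found for 67 of the 81 lowered genes and 9950 protein-coding genes of at least 1 CPM. The letters CCGGAAG, the core bound by ETS factors, were found on either strand in 31.3% of the lowered and 18.7% of all windows, and TGCGCA, the core of the NRF1 site, in 31.3% and 14.9%. The GC box GGGCGG was in 65.7% of the lowered and 65.9% of all windows, CCAAT in 37.3% and 39.4%, and the TATA box letters TATAAA in 1.49% and 6.58%. At least 10 CpG were present in 95.5% of the lowered and 83.7% of all windows, and in 50.9% of 114 windows of genes higher with the block. These shares were not tested. Of the printed windows, those of Mcm8 and Palb2 and the Emc3 window opposite Fancd2 hold CCGGAAG, and that of Palb2 also holds TGCGCA. Median exonic length was 4520 bases for the lowered and 4171 for all these genes, and median WT level 27.0 and 29.0 CPM.

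The lowered genes were followed in the other libraries. Values of these libraries entered the choice of the genes through the shared filter, scaling and estimate of spread. Bod1L knockout in FCS gave the 86 genes a median of -1.44 with 86 below 0, and in EpiSC medium a median of -1.44 with 86 below 0. Setd1a knockout in 2i gave -1.86 with 85 below 0, Bod1l being the exception at 0.24. By their library numbers, Setd1a KO replicate 1 in 2i and all Bod1L libraries in EpiSC medium belong to a later range than the other libraries of these comparisons. In replicate 2 alone, an alternative added after seeing the data, the Setd1a median was -1.90 with 85 below 0, as log2 ratios of CPM + 0.1. The part of the range in the difference between 2i and EpiSC medium was not tested. Mll2 knockout in 2i, aimed at another H3 lysine 4 methyltransferase gene, gave -0.08 with 54 below 0. The difference of the Bod1L effect in 2i from these was tested gene by gene over all 23501. Against FCS and EpiSC medium edgeR called 0 genes (165 and 294 with an unadjusted p below 0.05; DESeq2 called 1 in each; the block called 0 and 1). Against Setd1a in 2i it called 0 (424 with an unadjusted p below 0.05), DESeq2 called 1 and the block called 11, one of them Bod1l (adjusted p = 0.0178). Against Mll2 in 2i, edgeR called 9 genes lower with Bod1L loss (0.0383%) and 14 higher, and 7 of the 86 lowered genes were among the 9. With the block 342 were lower (1.46%), and 66 of the 86 lowered genes were called different. The 86 were chosen on the same Bod1L libraries, which favours such calls, so these counts are a description. Without WT replicate 1 the count against Mll2 was 0. Hsf2bp had log2 fold changes of -2.72 in 2i, -1.71 in FCS and -0.88 in EpiSC medium with Bod1L loss and -4.84 with Setd1a loss in 2i, values that were not called different (adjusted p = 1 for each difference). The 2-cell-like list, with 2.22 for Bod1L in 2i, had a median of 2.29 in FCS, 1.82 in EpiSC medium, 2.43 for Setd1a in 2i and -3.64 for Mll2 in 2i. Errors in EpiSC medium were wide, with 3.67 ± 3.85 for Tmem92, 0.83 ± 3.16 for Usp17lb, -0.77 ± 1.9 for Usp17la and 2.11 ± 1.57 for Sp110 (SE). None of these genes was called there with or without the block. Zscan4c differed from Mll2 in 2i with the block (adjusted p = 4.17e-05) but not without (0.266).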

How the data were processed

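RNA was extracted with Trizol, selected for poly(A) and made into stranded ScriptSeq libraries, per the labels' protocols. The authors deposited 1 table of raw read counts per gene, which featureCounts 1.5.2 made with strand taken into account as reversed, per the file headers. Reads were aligned with GSNAP 2017-03-17 to mm10 (GRCm38), per the submitters' processing notes. What was done about adapters and duplicate reads is not given in the sources used here. After removal of 92 spike-in lines, which held 0 counts, 49671 genes were left.

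All 36 libraries in 18 groups were fitted with edgeR 4.0.16 in R 4.3.3 (TMM, quasi-likelihood F test, filterByExpr with a minimum count of 10, which left 23501 genes), with Benjamini-Hochberg adjustment over all of them and a threshold of 0.05. The shared fit supplies the estimate of spread. CPM are counts per 1000000 after TMM scaling. A second fit had the replicate pair as a term. The labels give the same replicate numbers to KO and WT but do not say that numbers mark a shared culture. The pairing was inferred from the data: replicate differences of KO and WT correlated at 0.871 over 12244 genes, and at 0.344 to 0.871 in the 9 combinations of line and medium. DESeq2 1.42.0, RLE size factors, no filter, fewer libraries and leaving out each of the 4 libraries were alternatives.

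The comparison and the 34 gene lists (861 of 876 members tested) were chosen with earlier results of these data known. Named genes were Bod1l, Bod1, Setd1a and Kmt2b, the 15 lowest without overlap, all called higher, the 10 highest-expressed of the lowered, the 10 highest and 5 lowest called only with the block, called list members (with the block up to 4 per list), and the 3 genes of lowest p per difference of effects. Genes without a symbol or with a clone name were counted and not named, and some other genes that enter the counts are not reported here. Det1, Hars2, Cdkn1a, Zscan4c, Zscan4d, the genes of the mitochondrial genome, the pluripotency and feeder genes and the head-to-head neighbours were named after their values were seen. Gene positions come from GENCODE M21 and promoter sequences from RefSeq. Errors are standard errors of the fit or SD between libraries.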

Additional observations from a re-analysis of the deposited data

Results flagged for a closer look

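The Bod1L effect and the Mll2 effect in 2i, both log2 fold changes of KO over WT, differed for 5 genes named by the rule, by edgeR's test of the difference with Benjamini-Hochberg adjustment. The difference was 4.11 for Fzd6, a Wnt receptor gene (0.05 ± 0.376 with Bod1L loss and -4.06 ± 0.449 with Mll2 loss, SE, adjusted p = 0.00561), and 4.32 for Pls1, an actin-bundling gene (0.66 and -3.66, adjusted p = 0.00561). For both the change was on the Mll2 side. It was -2.06 for Ercc6l2 (-2.19 and -0.13, adjusted p = 0.0103), -2.63 for Mmachc (-2.62 and 0.01, adjusted p = 0.0244), and -2.37 for Gatb (-2.48 and -0.11, adjusted p = 0.0265). For these 3 it was on the Bod1L side. Det1, named after its values were seen, also differed, by -2.08 (-2.06 and 0.02, adjusted p = 0.0265). Without WT replicate 1 of the Bod1L line, 0 genes were called different.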

How the results depend on the processing

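Against 86 genes called lower, the replicate block gave 424, the 4 libraries alone 0, the 4 libraries with the block 1412, the 12 libraries in 2i 8, DESeq2 187, RLE size factors 67 and no filter on low counts 72. Leaving out 1 library gave 7 to 78. Of the 86, 86 were called with the block and by DESeq2, 67 with RLE, 39 without the filter and 8 in the 12 libraries. Against 2 called higher, the same settings gave 234, 0, 1093, 0, 13, 2 and 77, and leaving out 1 library 0 to 2. For the difference from FCS (0), no filter gave 3 and DESeq2 1. For EpiSC (0), the block gave 1, no filter 6 and DESeq2 1. For Setd1a in 2i (0), the block gave 11, no filter 23 and DESeq2 1. For Mll2 in 2i (23), the block gave 935, 12 libraries 52, no filter 346, DESeq2 153 and leaving out 1 library 0 to 15. Over the fits without 1 library the log2 fold change turned its sign for Setd1a (-0.06 to 0.18), Nupr1 (-2.51 to 0.05), Ldhd (-0.67 to 0.4), Unc5cl (-0.28 to 0.01) and Fzd6 (-0.08 to 0.2). None of these was called without the block. The fits on fewer libraries have fewer samples, and the cause of the other changes was not tested. RLE moved the median of all genes to 0.05. Of the values of named genes under alternatives, 699 kept their direction and side of the threshold, 136 passed it newly, 151 lost it and 7 turned sign. With 2 libraries per group, a gene that misses the threshold is not shown to be unchanged.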

Other observations

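Other genes with large values were picked out after they were seen. H19, an imprinted non-coding RNA, had 103 and 5.83 CPM in KO cells, against 35.2 and 1.91 CPM in WT cells, so replicate 1 was far above replicate 2 in both genotypes and the groups overlapped (1.54 ± 1.47, SE, n = 2 each, edgeR adjusted p = 1 without and 9.63e-04 with the block). Nqo1, a quinone reductase gene, had 188 and 114 CPM in KO cells, against 77.3 and 64.9 CPM in WT cells, without overlap (edgeR adjusted p = 0.915 without and 0.00306 with the block). Cacna1s, a calcium channel gene, had 19.0 and 30.2 CPM in KO cells, against 3.49 and 6.33 CPM in WT cells (edgeR adjusted p = 0.133 without and 0.00117 with the block).

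Of the 86 lowered genes, 67 had less in replicate 2 than in replicate 1 in both genotypes, against 4979 of 11633 genes of at least 5 CPM. Of the 424 genes lower with the block, 340 did.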
